A study of Homo sapiens with 16 samples.

Results

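Complex splicing variations are places in a transcript where 4 or more splice junctions compete for 1 exon. In the authors' deposited table of splicing in HL60 cells, 3352 of 6716 local splicing variations had 4 or more junctions and a type that did not include a retained intron, and these are described here. The choice used the number of junctions and the type, and no inclusion value. The number of junctions also counts those found only in these reads, from either group, so the choice is not independent of the data. The part of this in the entropy and in the inclusion of such junctions was not tested. They lay in 2286 genes, of which 1492 held 1 such variation and 794 held 2 or more, up to 8 in CCDC66. By the gene types of GENCODE v29, 3060 (91.3%) lay in protein-coding genes, 82 in transcribed unprocessed pseudogenes and 52 in lincRNA genes.

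HL60 is a human line from an acute promyelocytic leukaemia. The labels call all samples wild type. The cells were kept for 5 h with SY351 at 50 nM, a compound that inhibits CDK7, or with DMSO, its solvent. Polyadenylated RNA was sequenced from 4 numbered replicates in each group, each listed with 2 technical repeats, and nothing in the labels says that the replicates were separate cultures. The study asked how CDK7 acts on transcription, including splicing and termination. The splicing table gives 1 value for each junction in each group, so no splicing value below has an error, and no difference in splicing between SY351 and DMSO could be tested against replicates.

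In a local splicing variation all junctions start from the same exon (a source variation) or end in the same exon (a target variation). The spliceosome joins the ends of each intron in steps that mostly run while RNA polymerase II is still transcribing. CDK7, with cyclin H and MAT1 (CCNH and MNAT1), forms the CDK-activating kinase of the transcription factor TFIIH, which phosphorylates the tail of RNA polymerase II and activates other kinases of the cell cycle and of transcription. The inclusion of a junction is its expected share of all reads of the variation, from 0 to 1 or in percent. A de novo junction is one found in the reads but not in the annotation the authors used.

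The dominant junction, the one with the highest inclusion, differed between SY351 and DMSO in 1161 variations, and in 662 of these both dominant junctions were annotated. Taking 1 variation a gene, on the chromosomes used for sequences, left 534 such changes. Of these, 523 were found at 1 place only in GENCODE v29 on GRCh38, by gene identifier, intron lengths and the distance between the introns. The 4 with the largest difference at any junction are shown as the 30 bases across each junction. They show which exon start the dominant junction of each group joins to the shared upstream exon. Whether the exon joined with SY351 replaced the other or was spliced on to it was not tested. Lower case marks the end of the upstream exon, which both junctions share, and capitals mark the start of the exon joined to it. The letters come from the GENCODE transcripts.
SEPSECS, dominant with SY351: ctgcttctggagaagAGTCTCGCTCTTTCG
SEPSECS, dominant with DMSO: ctgcttctggagaagGGCAAGTGTCCAGAG
ARID4B, dominant with SY351: agaagggaaaaggcaGTGCCCCACACTGAC
ARID4B, dominant with DMSO: agaagggaaaaggcaCAAATAGTAGTGATA
HEATR6, dominant with SY351: cttaacagattacagAGTTTCACACTGTTG
HEATR6, dominant with DMSO: cttaacagattacagGTAATTGTTGATGAA
ZNF816, dominant with SY351: acctggagtttgtggAATTTTGCTCTTGTT
ZNF816, dominant with DMSO: acctggagtttgtggATAGCTCTTTAAAAT

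All 4 genes lie on the minus strand, and in each the junction dominant with SY351 closed the shorter intron. In SEPSECS, whose enzyme makes selenocysteine on its tRNA, the intron at chr4:25159765-25160255 (491 bases) had an inclusion of 65.7% with SY351 and 2.9% with DMSO. The intron at chr4:25159108-25160255 (1148 bases) had 6.1% with SY351 and 91.4% with DMSO. In ARID4B, which codes for a subunit of the SIN3A histone deacetylase complex, the intron at chr1:235176904-235177799 (896 bases) had 80.9% with SY351 and 1.0% with DMSO. The intron at chr1:235175400-235177799 (2400 bases) had 12.2% with SY351 and 98% with DMSO. The junction dominant in ARID4B with SY351 lies in no transcript annotated as protein-coding, whereas the other 3 junctions dominant with SY351 lie in at least 1 annotated protein-coding transcript. In HEATR6 the intron at chr17:60075834-60076129 (296 bases) had 89.7% with SY351 and 5.1% with DMSO, and that at chr17:60073887-60076129 (2243 bases) had 5.3% with SY351 and 70.2% with DMSO. In ZNF816, a zinc finger gene, the intron at chr19:52951892-52952750 (859 bases) had 97.2% with SY351 and 11.6% with DMSO, and that at chr19:52951585-52952750 (1166 bases) had 0.6% with SY351 and 85.3% with DMSO. All of these inclusions are from the authors' deposited table.

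Among the listed complex variations, junction use was more even with SY351. The evenness was measured as Shannon entropy in bits over the inclusions of a variation, which is 0 when 1 junction takes all reads and grows as reads spread over more junctions. The median entropy over the 3352 complex variations was 1.32 bits with SY351 and 0.800 bits with DMSO. It was higher with SY351 in 2722 variations (81.2%), against 78.4% of all 6716 variations, which include the complex ones. These shares rest on 1 value a group, so they have no error, and variations of 1 gene share reads. The median difference was 0.611 bits, with quartiles of 0.156 and 0.899 bits. Entropy was more than 1 bit higher with SY351 in 580 variations and more than 1 bit lower in 49. Of the complex variations 98.2% had a largest difference of at least 0.2, so these values describe listed variations and not the transcriptome. The part of this selection in the entropy difference was not tested.

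In the same listed variations the dominant junction took less of the reads with SY351. Its median inclusion was 0.599 with SY351 and 0.842 with DMSO. An inclusion over 0.9 was held by the dominant junction of 74 variations (2.21%) with SY351 and of 1314 (39.2%) with DMSO. Below 0.5 it stood in 813 variations (24.3%) with SY351 and in 318 (9.49%) with DMSO. The number of junctions with an inclusion of at least 0.05 had a mean of 2.94 with SY351 and 2.06 with DMSO.

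**Figure D1:**
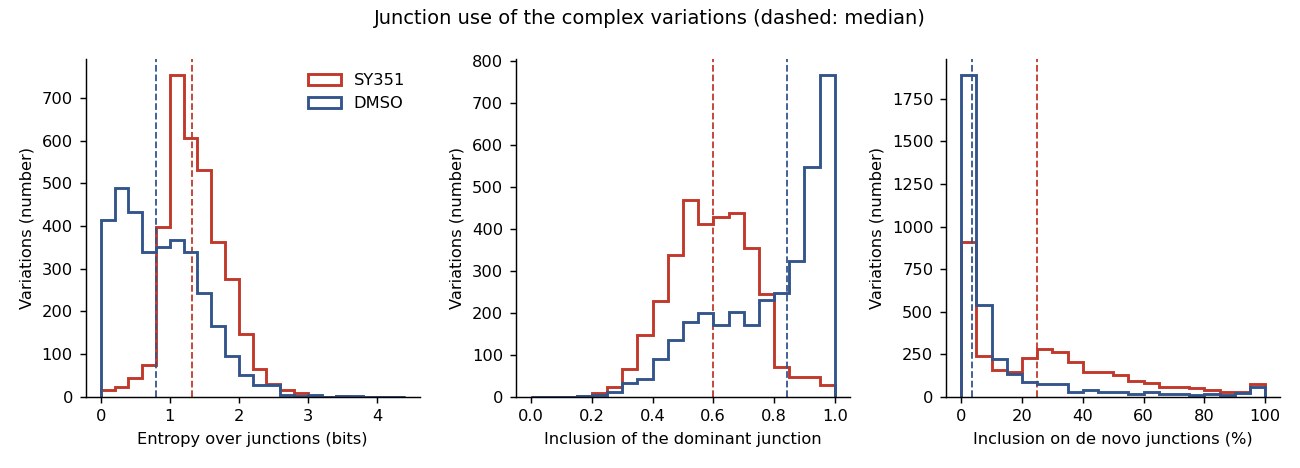
Histograms over the 3352 complex variations of the entropy of junction use in bits, the inclusion of the dominant junction, and the percent of inclusion on de novo junctions, with SY351 in red and DMSO in blue and medians dashed. The SY351 median lies above the DMSO median for entropy (1.32 and 0.800 bits) and for de novo inclusion (24.9% and 3.70%) and below it for the dominant junction (0.599 and 0.842).

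The higher entropy was not tied to a large number of junctions. With 4 junctions the median was 1.11 bits with SY351 and 0.531 bits with DMSO, and with 10 or more junctions it was 1.87 bits with SY351 and 1.37 bits with DMSO. The median difference was 0.636 bits over the 1073 variations with 4 junctions and 0.627 bits over the 1177 variations with 3 junctions and no retained intron, just outside the choice. Over all 2143 variations with 2 or 3 junctions it was 0.609 bits, close to the 0.611 bits of the complex ones. The 745 variations with 4 or more junctions and a retained intron had a median difference of 0.376 bits, and 69.9% were higher with SY351. Source variations (1863) and target variations (1488) had median differences of 0.635 and 0.588 bits.

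**Figure D2:**
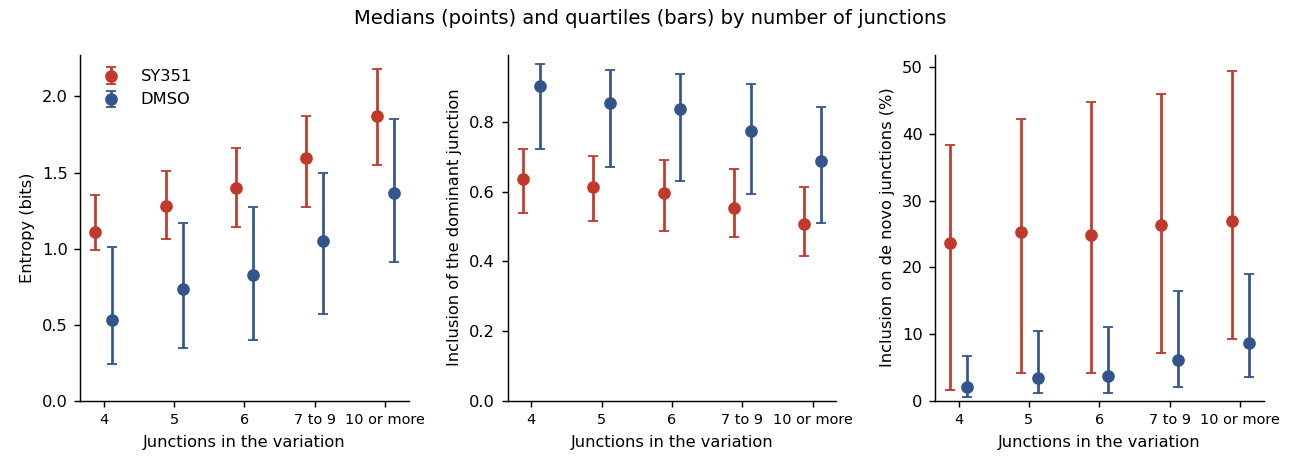
Medians (points) and quartiles (bars) of entropy in bits, inclusion of the dominant junction and percent of inclusion on de novo junctions, by the number of junctions in the variation, with SY351 in red left of DMSO in blue. The SY351 median entropy lies above the DMSO median in each of the 5 classes, from 1.11 against 0.531 bits at 4 junctions to 1.87 against 1.37 bits at 10 or more.

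Several technical measures moved with these values. Counts assigned to genes totalled 43.3 to 77.9 M in the 4 SY351 libraries and 103.7 to 124.2 M in the 4 DMSO libraries. DMSO replicates 1 and 2 correlated at r = 0.983 with each other and at 0.762 to 0.794 with DMSO replicates 3 and 4, which correlated at 0.937 to 0.954 with the SY351 libraries (log CPM across genes). The folder of the splicing table is named as holding no outliers, and the sources used here do not say which libraries stand behind its DMSO values. Host gene expression is given in CPM, counts scaled to library totals after TMM correction. Entropy was higher with SY351 in 76.7% of the 717 variations whose hosts were in the lowest of 4 equal classes of expression with SY351, and in 83.0% of the 716 in the highest. The part of library depth and of the choice of DMSO libraries in the entropy difference was not tested.

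Called variations were those with any junction whose posterior probability of a difference of at least 0.2 was 0.95 or more in the authors' deposited table. Of the complex variations 1905 (56.8%) were called, against 55.7% of all variations, a share near that of the table as a whole. The table itself was selective, because 99.1% of all its variations had a junction with a probability above 0.5. The share called is therefore a share of listed variations and not of the transcriptome. The largest difference at any junction of a complex variation ranged from 0.119 to 0.928.

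Spread over several junctions was most complete in AQR, MCM3AP, REV1, BACH1 and SASS6, whose entropy was higher with SY351 by the largest amounts. AQR codes for an intron-binding helicase of the spliceosome, and the variation entering 1 of its exons had 6 junctions. The annotated junction of AQR had an inclusion of 48.0% with SY351 and 99.8% with DMSO (difference in the authors' deposited table -0.51, probability 1). The 5 de novo junctions of AQR together took 52.1% with SY351 and 0.1% with DMSO, and entropy was 2.14 bits with SY351 and 0.01 bits with DMSO. AQR was counted at 81.6, 77.5, 77.5 and 75.1 CPM in SY351 replicates 1 to 4, against 1.92, 1.44, 80.5 and 107 CPM in DMSO replicates 1 to 4. The SY351 libraries thus lay within the range of the DMSO libraries, of which replicates 1 and 2 held few AQR reads.

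REV1, a polymerase that copies past DNA damage, had an annotated junction at 36.2% with SY351 and 97.3% with DMSO. Its de novo junctions took 63.8% with SY351 and 2.6% with DMSO, and the strongest of them stood at 28.9% with SY351 and 0% with DMSO, with a difference of 0.27. MCM3AP, a scaffold of mRNA export, kept 41.3% on its annotated main junction with SY351 and 98.1% with DMSO. A single de novo junction of MCM3AP took 31.7% with SY351 and 0% with DMSO. BACH1, a haem-regulated repressor of transcription, had 39.0% on its main junction with SY351 and 99.3% with DMSO. SASS6, which builds the cartwheel of the centriole, had 19.8% on its annotated junction with SY351 and 99.8% with DMSO, and all 3 other SASS6 junctions were de novo. SASS6 was counted at 0.0987 and 0.132 CPM in DMSO replicates 1 and 2, against 23.0 and 29.7 CPM in DMSO replicates 3 and 4.

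**Figure D3:**
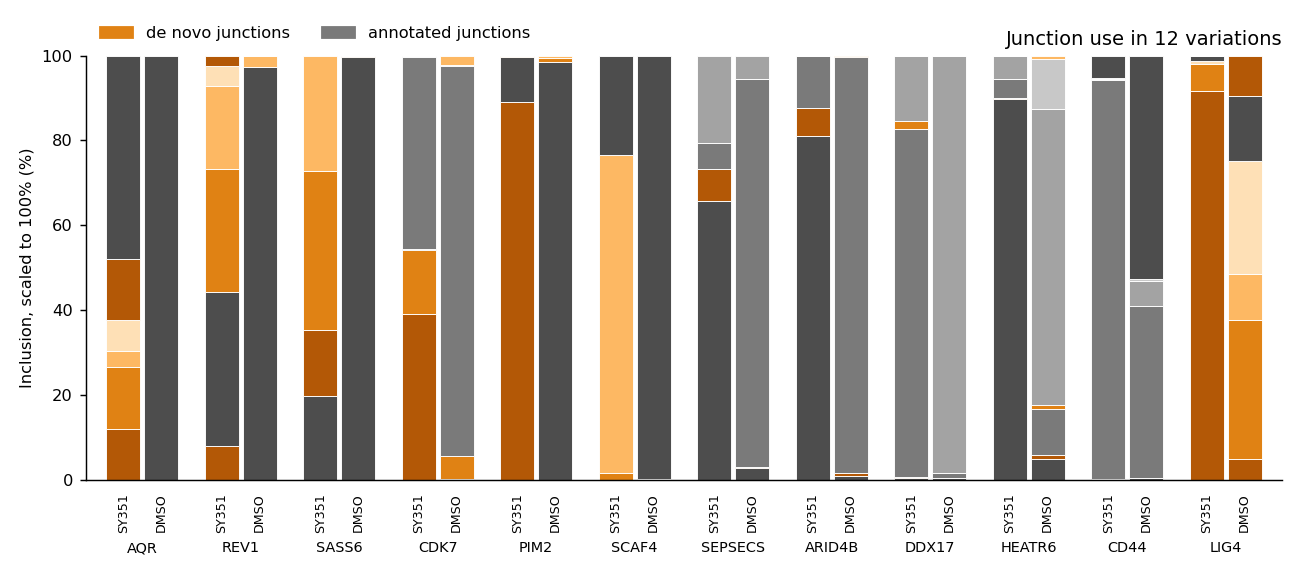
Inclusion of every junction, scaled to 100%, in 12 complex variations, with the SY351 bar left of the DMSO bar in each gene, de novo junctions in orange and annotated junctions in grey. In AQR, REV1 and SASS6 a single annotated junction fills 97.3% or more of the DMSO bar and several de novo junctions share the SY351 bar, whereas in SEPSECS, ARID4B, DDX17, HEATR6 and CD44 the change is mostly between annotated junctions.

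The opposite pattern, a narrowing onto 1 junction, was seen in LIG4, LYSMD4, ZSCAN32, ZNF23 and CH507-9B2.4, whose entropy was lower with SY351 by the largest amounts. LIG4 codes for the ligase that closes double-strand breaks in end joining. A de novo junction of 467 bases in LIG4 had an inclusion of 91.6% with SY351 and 4.9% with DMSO, with a difference of 0.89 and a probability of 1. Entropy in LIG4 was 0.51 bits with SY351 and 2.33 bits with DMSO, where 5 junctions had an inclusion of at least 0.05. LYSMD4 had 98.4% on an annotated junction with SY351 and 42.3% with DMSO. ZSCAN32 had 98.6% on an annotated junction with SY351 and 59.0% with DMSO, and both kept the same dominant junction. LYSMD4 was counted at 2.69 to 3.85 CPM with SY351 and 6.96 to 13.9 CPM with DMSO, a low level in both groups.

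A different dominant junction in SY351 than in DMSO was seen in 34.6% of the complex variations, against 34.6% of all variations. Counted only where the dominant junction led by at least 0.1 in both groups the share was 22.4%, and where a junction of the pair was past the probability it was 26.4%. Among the changes, 662 ran between annotated junctions, 366 were from an annotated junction with DMSO to a de novo one with SY351, 73 were the other way, and 60 were between de novo junctions. Where the dominant junction was the same in both groups (2191 variations), entropy was higher with SY351 in 89.3%. Where it differed, entropy was higher in 65.9%.

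De novo junctions made up 11839 of the 20020 junctions of the complex variations (59.1%), and 111 variations had none. Their summed inclusion had a median of 24.9% with SY351 and 3.70% with DMSO. It was higher with SY351 in 2509 variations (74.9%), against 64.2% of all variations, a share that also rests on how many variations hold any de novo junction. A de novo junction was the dominant one in 497 variations (14.8%) with SY351 and in 204 (6.09%) with DMSO. Among de novo junctions 603 (5.09%) were past the probability with more inclusion with SY351, against 7.73% over all variations and 23.4% over those with 2 or 3 junctions, and 77 (0.650%) with less, against 0.98% over all variations. Among annotated junctions 678 (8.29%) were past it with more inclusion with SY351, against 10.8% over all variations, and 1617 (19.8%) with less, against 21.8%. The junction that gained most with SY351 was de novo in 51.8% of the complex variations, and the junction that lost most was de novo in 7.61%.

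Single de novo junctions took over in PIM2, MTERF3, SCAF4 and PTBP2. PIM2, a serine/threonine kinase of blood cells, had 88.9% on a de novo junction with SY351 and 0.1% with DMSO, and 10.5% on its annotated junction with SY351 and 98.5% with DMSO. PIM2 was counted at 7.26, 8.74, 6.21 and 8.34 CPM in SY351 replicates 1 to 4, against 40.2, 43.8, 16.6 and 23.0 CPM in DMSO replicates 1 to 4. The groups did not overlap, PIM2 was lower with SY351 (edgeR adjusted p = 0.0119), and its log2 fold was -1.35 ± 0.17 (SE) without DMSO replicates 1 and 2. SCAF4, which binds the tail of RNA polymerase II and holds back early polyadenylation, had 74.8% on a de novo junction with SY351 and 0% with DMSO. PTBP2, a splicing repressor best known from neurons, had 78.7% on a de novo junction with SY351 and 0.3% with DMSO. PTBP2 was counted at 0.903 and 0.867 CPM in DMSO replicates 1 and 2, against 14.9 and 18.8 CPM in DMSO replicates 3 and 4. MTERF3, a regulator of mitochondrial gene expression, had 84.1% on a de novo junction with SY351 and 2.8% with DMSO.

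CDK7 itself held a complex variation, with 6 junctions leaving 1 exon. Its annotated main junction had an inclusion of 45.0% with SY351 and 91.7% with DMSO in the authors' deposited table, with a difference of -0.48. A de novo junction of CDK7 had 39.0% with SY351 and 0.2% with DMSO, with a difference of 0.37 and a probability of 0.997. MNAT1, its assembly factor, held 1 complex variation, with an inclusion of 0.516 with SY351 and 0.939 with DMSO for the dominant junction and an entropy of 1.59 bits with SY351 and 0.385 bits with DMSO. The gene count of CDK7 was not analysed here. MNAT1 was counted at 23.6, 23.8, 24.0 and 25.7 CPM in SY351 replicates 1 to 4, against 1.95, 1.51, 23.2 and 28.5 CPM in DMSO replicates 1 to 4. CCNH, the cyclin partner, was counted at 8.37, 8.52, 8.90 and 9.17 CPM with SY351, against 1.75, 1.63, 16.2 and 21.0 CPM with DMSO. The SY351 values of CCNH lay between DMSO replicates 1 and 2 and DMSO replicates 3 and 4, those of MNAT1 lay between DMSO replicates 3 and 4, and neither gene passed edgeR's quasi-likelihood test (adjusted p = 0.554 for MNAT1 and 0.872 for CCNH). Without DMSO replicates 1 and 2, CCNH had a log2 fold of -1.07 ± 0.17 (SE), with an adjusted p of 8.68e-10.

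The junction with the largest gain was shorter than the one with the largest loss in 1981 complex variations (59.1%), against 52.4% of all variations and 51.8% of those with 2 or 3 junctions and no retained intron. The median intron length was 3384 bases for the gained junction and 4571 bases for the lost one. The gained junction spanned fewer exons of the variation in 50.3% and more in 29.9%.

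Gained and lost annotated junctions were compared by the transcripts they belong to. In 1491 complex variations both the most gained and the most lost junction were annotated, and 1461 of these were found at 1 place in GENCODE v29. The gained junction lay in at least 1 protein-coding transcript in 847 (58.0%), and the lost junction in 1320 (90.3%). Only the lost junction did so in 514 variations, and only the gained junction in 41. In variations with 2 or 3 junctions the shares were 58.9% for gained and 88.6% for lost junctions. Of 787 source variations, the gained junction led only to last exons in 182 (23.1%) and the lost one in 116 (14.7%), against 22.6% and 14.3% in source variations with 2 or 3 junctions. Of 674 target variations, the gained junction came only from first exons in 172 (25.5%) and the lost one in 197 (29.2%). In target variations with 2 or 3 junctions the order was the other way, with 24.2% for gained and 17.1% for lost junctions.

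**Figure D4:**
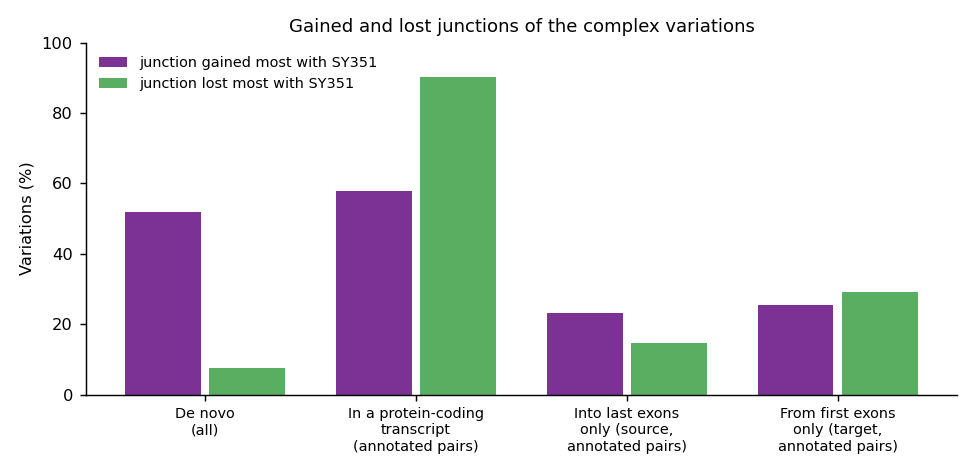
Percent of complex variations whose most gained junction (purple) and most lost junction (green) with SY351 was de novo, lay in a protein-coding transcript, led only to last exons (source variations) or came only from first exons (target variations). Gained junctions were de novo in 51.8% and lost ones in 7.61%, and among annotated pairs 58.0% of gained and 90.3% of lost junctions lay in a protein-coding transcript.

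The exons reached with SY351 in SEPSECS, HEATR6 and ZNF816 start with similar letters, so the exons of all annotated pairs were searched for shared words of 10 letters. The search took up to 200 bases of the exon next to each most gained and most lost junction, on the side where they differ, in the 1401 pairs that were found at 1 place on the chromosomes used for sequences. The overlapping words CCTCAGCCTC and CTCAGCCTCC had the largest excess in gained over lost exons. CCTCAGCCTC was in 82 gained exons (5.85%) of 73 genes and in 6 lost exons (0.428%), and CTCAGCCTCC in 83 gained and 7 lost exons. Of 73538 annotated exons of genes with a variation, 0.970% held CCTCAGCCTC in their first 200 bases. The reverse complement of CCTCAGCCTC, GAGGCTGAGG, was in 3 gained and 4 lost exons. The word AGTAGCTGGG was in 69 gained exons and in 0 lost exons, and GCTGGGATTA in 64 gained and 0 lost exons. Apart from that reverse complement, these words are part of the Alu repeat, a short interspersed element of primate genomes, read on the strand opposite to its own A-rich transcript. SEPSECS, HEATR6 and ZNF816 were among the genes with CCTCAGCCTC, as were CCNL2 and KDM5B. In variations with 2 or 3 junctions CCTCAGCCTC was in 30 of 860 gained exons (3.49%) and in 2 lost exons. The words were chosen for their excess, so these counts are a description.

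Complex variations were found in genes of splicing itself. Of 119 core spliceosome genes listed, 22 held 36 of them. Entropy was higher with SY351 in 34 of the 36, against 81.2% of all complex variations. The median difference was 0.813 bits, to be set beside the median over all complex variations given above. PRPF38B changed between annotated junctions, with 77.0% on 1 with SY351 and 14.2% with DMSO, and PRPF3 of the U4/U6 particle had 66.2% and 16.0% on its gained junction with SY351 and with DMSO. PRPF3 was counted at 0.903 and 0.955 CPM in DMSO replicates 1 and 2, against 48.3 and 67.2 CPM in DMSO replicates 3 and 4. LUC7L2, a partner of the U1 particle, had 53.4% on a de novo junction with SY351 and 5.6% with DMSO. Among splicing regulators 33 genes held 45 complex variations. Of these 38 had higher entropy with SY351 and 18 changed the dominant junction, against 81.2% and 34.6% of all complex variations. DDX17, a DEAD-box helicase, had 82.0% on an annotated junction with SY351 and 1.2% with DMSO.

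Of the core spliceosome genes 16 of 106 tested were lower with SY351 and 0 were higher in edgeR's quasi-likelihood test at an adjusted p below 0.05, with a median log2 fold of -0.25, against 13.6% lower and 2.91% higher of all genes. At an unadjusted p below 0.05, 2 were higher, and DESeq2 called 1 higher. Without DMSO replicates 1 and 2, 49 were lower and 17 higher, against 26.4% and 21.9% of all genes. Against the same 13.6% and 2.91% of all genes, 9 of 95 splicing regulators were lower and 0 higher, with 10 higher at an unadjusted p below 0.05 and 6 by DESeq2. Without DMSO replicates 1 and 2, 24 of them were lower and 33 higher, against 26.4% and 21.9% of all genes.

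Complex variations were also found in genes of 3' end formation and RNA decay, where 29 genes held 50, and in genes of the RNA polymerase II machinery, where 27 genes held 39. Entropy was higher with SY351 in 43 of the 50 and in 32 of the 39, against 81.2% of all complex variations. EXOSC9, a subunit of the exosome, had 82.9% on an annotated junction with SY351 and 12.1% with DMSO. EXOSC9 was counted at 0.451 and 0.147 CPM in DMSO replicates 1 and 2, against 32.0 and 42.7 CPM in DMSO replicates 3 and 4. CLP1, a kinase of the 3' cleavage machinery, had 59.9% on de novo junctions with SY351 and 0.1% with DMSO, and ZCCHC7, of the complex that marks nuclear RNA for decay, had 74.4% and 16.7%. CLP1 was counted at 2.86 to 3.55 CPM with SY351 and 0.0846 to 16.7 CPM with DMSO, a low level in most libraries. CCNL2, a cyclin of the splicing kinase CDK11, had 7.2% on its main DMSO junction with SY351 and 89.3% with DMSO. IWS1, an elongation factor, had 60.8% on a de novo junction with SY351 and 1.3% with DMSO. IWS1 was counted at 14.7, 17.7, 16.9 and 16.8 CPM in SY351 replicates 1 to 4, against 79.9, 95.03, 63.1 and 87.9 CPM in DMSO replicates 1 to 4, and was lower with SY351 (edgeR adjusted p = 0.00291).

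In DNA repair, replication and the cell cycle 46 genes held 78 complex variations, and entropy was higher with SY351 in 73 of them. The share over all complex variations, to be set beside this and the next lists, was 81.2%. CDC27, a subunit of the anaphase-promoting complex, had 47.2% on a de novo junction with SY351 and 0.1% with DMSO. ATR, the kinase of the replication checkpoint, had 41.0% on its annotated main junction with SY351 and 98.1% with DMSO. Among chromatin regulators 54 genes held 88, of which 75 had higher entropy with SY351. KDM5B, a demethylase of histone H3, had 51.0% on a de novo junction with SY351 and 0.8% with DMSO, and BRD1, a scaffold of histone acetyltransferases, had 69.1% on an annotated junction with SY351 and 3.1% with DMSO. Kinases and regulators of small GTPases (50 variations in 40 genes) and the apoptosis and ubiquitin pathway (58 in 38) had higher entropy with SY351 in 44 and 52 variations. In APAF1, the core of the apoptosome, a de novo junction had 55.3% with SY351 and 2.5% with DMSO.

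Complex variations in myeloid and leukaemia genes numbered 18, in 12 genes. Entropy was higher with SY351 in 11 and lower in 7, with a median difference of 0.315 bits, and 9 of the 18 changed their dominant junction. Over all complex variations 81.2% had higher entropy and 34.6% changed the dominant junction. CD44, the receptor for hyaluronan, had 5 annotated junctions and no de novo one. The CD44 junction over the longer intron of 18039 bases had 93.8% with SY351 and 40.8% with DMSO, and entropy was 0.38 bits with SY351 and 1.33 bits with DMSO. RUNX1, a transcription factor of blood stem cells, had 78.5% on a de novo junction with SY351 and 24.8% with DMSO. IKZF1, which codes for the lymphoid factor Ikaros, went the other way, with 21.2% on a de novo junction with SY351 and 72.2% with DMSO. With 18 variations, the difference of this list from the others was not tested.

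The variations with most junctions were NPIPB4 with 30, FAM192A with 29, CNOT8 with 27, GSE1 with 25 and RP5-1043L13.1 with 24. NPIPB4 belongs to a family of near-identical copies on chromosome 16, so the reads of its 28 de novo junctions are uncertain, and its type was not spelled out. CNOT8, a deadenylase of the CCR4-NOT complex, had 35.6% on an annotated junction with SY351 and 4.5% with DMSO, and 32.9% on its main DMSO junction with SY351 and 71.2% with DMSO. FAM192A and GSE1 were not called at any junction. RP5-1043L13.1, a lincRNA, had 53.7% on its 20 de novo junctions with SY351 and 79.4% with DMSO.

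Very large differences were also seen in 3 genes outside the protein-coding annotation or with clone names. In AC138035.2 and RP11-206L10.2, a de novo junction of 1503 bases had 92.9% and 90.5% with SY351, against 0.8% and 0.8% with DMSO. The equal lengths in genes on chromosomes 5 and 1 leave it uncertain whether these are separate values. RP11-192H23.4 had 0.4% on a de novo junction with SY351 and 93.3% with DMSO.

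A junction that leaves a source variation and enters a target variation was listed under both. There were 1432 such junctions, and of the 463 past the probability in either variation 455 had the same sign in both (98.3%). They are the same reads counted against different totals, so each such pair is 1 observation.

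The expression of the genes that hold complex variations was not used by the rule of their choice and was tested. A variation is listed from junction reads of its gene, so the choice is not independent of expression. The part of this in the shares below was not tested. Of 1930 host genes tested with edgeR's quasi-likelihood test over all 8 libraries, 350 (18.1%) were lower at an adjusted p below 0.05, against 13.6% of all 15472 genes tested. Higher were 37 (1.92%), against 2.91% of all genes. Of 1170 genes that host only other variations 217 (18.5%) were lower and 29 (2.48%) higher, close to the hosts of complex ones. Without DMSO replicates 1 and 2, 872 (45.2%) were lower, against 26.4% of all genes, and 346 (17.9%) were higher, against 21.9% of all genes. In such bulk counts fewer cells of a type and less RNA per cell cannot be told apart. Lower and higher are relative to the other genes of a library, so a change shared by most genes would not show.

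Higher entropy was seen for hosts in either direction of expression. Without DMSO replicates 1 and 2, entropy was higher with SY351 in 86.9% of the 1325 variations whose host was lower, in 73.6% of the 515 whose host was higher and in 84.7% of the 1025 whose host was not called. The median inclusion on de novo junctions was 23.4% with SY351 and 2.40% with DMSO where the host was lower, and 25.2% with SY351 and 5.61% with DMSO where it was higher.

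Among hosts past the test with no overlap between groups, the largest falls were in SAC3D1, ZNF672, TBC1D10B, HERPUD1 and DBP. TBC1D10B, a GTPase-activating protein for Rab proteins, was counted at 8.63, 10.3, 10.2 and 9.58 CPM in SY351 replicates 1 to 4, against 529, 565, 89.8 and 115 CPM in DMSO replicates 1 to 4. The log2 fold of TBC1D10B was -5.07 ± 0.73 (SE) with an edgeR adjusted p of 0.0059, and -3.38 ± 0.16 without DMSO replicates 1 and 2. Its complex variation had 64.7% on a de novo junction with SY351 and 0.6% with DMSO. HERPUD1, a component of protein degradation at the endoplasmic reticulum, was counted at 4.42, 5.91, 4.49 and 4.30 CPM with SY351, against 203, 267, 48.6 and 68.3 CPM with DMSO. DBP, a transcription factor of the circadian clock, was counted at 6.75, 7.64, 5.51 and 8.25 CPM with SY351, against 279, 323, 29.1 and 38.6 CPM with DMSO. SAC3D1 (log2 fold -5.77) and ZNF672 (-5.66) had folds of -3.48 and -3.70 without DMSO replicates 1 and 2. In these 5 genes DMSO replicates 1 and 2 lay above DMSO replicates 3 and 4, and all lay above the SY351 libraries.

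By the same rule the largest rises were in NPIPB11, NPIPB13, PDE4D, LCOR and PPP6R3. PDE4D, a phosphodiesterase of cyclic AMP, was counted at 118, 119, 139 and 147 CPM in SY351 replicates 1 to 4, against 15.1, 17.1, 38.8 and 33.8 CPM in DMSO replicates 1 to 4. The log2 fold of PDE4D was 2.32 ± 0.38 (SE) with an edgeR adjusted p of 0.00804. LCOR, a nuclear receptor corepressor, was counted at 44.9, 50.5, 49.6 and 43.5 CPM with SY351, against 3.65, 3.83, 15.1 and 20.3 CPM with DMSO. PPP6R3, a regulatory subunit of protein phosphatase 6, was counted at 283, 296, 333 and 296 CPM with SY351, against 53.2, 39.6, 112 and 147 CPM with DMSO. NPIPB11 (log2 fold 2.75) and NPIPB13 (2.47) share near-identical sequence with other copies, so their counts are uncertain. LCOR and PPP6R3 did not pass the threshold with total count scaling, nor without DMSO replicate 1 or 2, nor without any 1 SY351 library, with log2 folds of 1.85 to 2.18 for LCOR and 1.54 to 1.84 for PPP6R3.

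**Figure D5:**
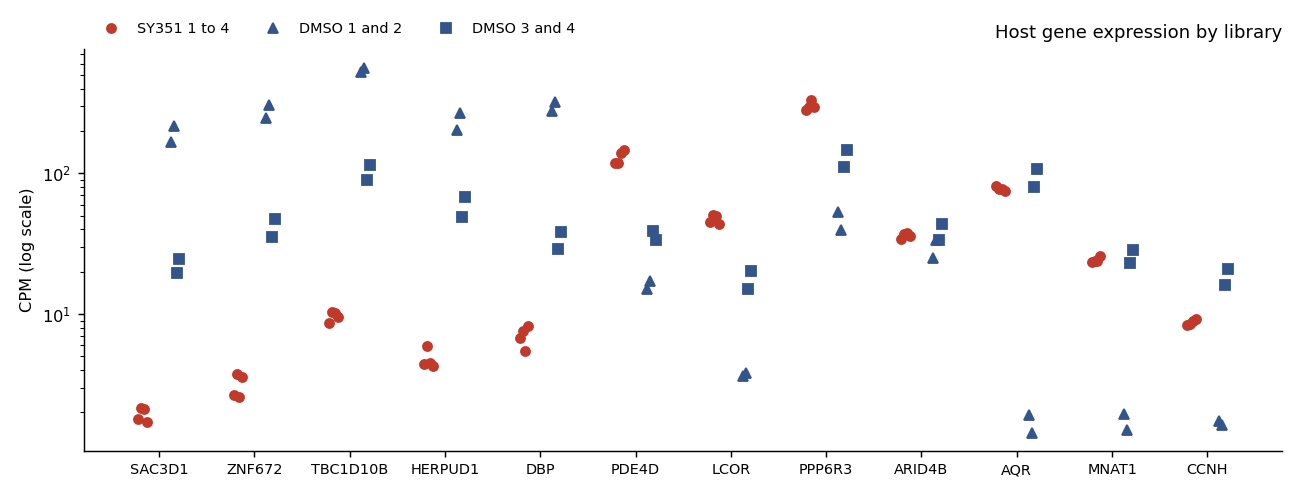
TMM-scaled CPM (log scale) of 12 genes in each of the 4 SY351 libraries (red circles, left) and the 4 DMSO libraries (blue, right; triangles for replicates 1 and 2, squares for 3 and 4). In the first 5 genes every SY351 value lies below every DMSO value, in PDE4D, LCOR and PPP6R3 above, and in AQR, MNAT1 and CCNH the pair DMSO 1 and 2 lies far below DMSO 3 and 4.

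The identity of the cells was checked on marker genes. Of the 6 promyelocyte markers chosen 3 were tested, and of the 8 markers of other blood lineages 6 were. MPO, the myeloperoxidase of promyelocytes, was counted at 28258 to 32719 CPM with SY351 and 12116 to 48112 CPM with DMSO. CTSG and CD33 were detected as well, at 586 to 670 and 74.9 to 80.3 CPM with SY351 and 19.4 to 280.2 and 3.10 to 86.4 CPM with DMSO. Of other blood lineages, the monocyte marker CD14 was counted at 1.28 to 1.57 CPM with SY351 and 6.43 to 61.8 CPM with DMSO. The T cell marker CD3E was at 2.33 to 3.40 CPM with SY351 and 0.162 to 2.03 CPM with DMSO, and the B cell marker MS4A1 at 0.678 to 1.20 CPM with SY351 and 0.0282 to 0.336 CPM with DMSO. The platelet marker GP1BA was at 2.02 to 2.69 CPM with SY351 and 0.627 to 1.26 CPM with DMSO. The part of other cells in the splicing values was not tested.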

How the data were processed

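The splicing values are from the authors' deposited table, whose column names are those of MAJIQ and Voila, per the file headers: a fraction of inclusion from 0 to 1 for each junction and group, an expected difference, which is a shrunken estimate and not the plain difference of the fractions, and a posterior probability, which is no p-value of a test. The sources used here give no version. The deposited difference is control minus SY351 and was turned to SY351 minus DMSO, after its sign was found opposite in 100% of 17265 junctions that differed by at least 0.05. Only 9.29% of the variations lay on their gene's place in GENCODE v29, so no coordinate of the table is printed, and those above are from GENCODE on GRCh38. Inclusions were scaled to sum to 1 before the entropy was taken, with the logarithm to base 2. Junctions with an inclusion of at least 0.05 counted as used.

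Gene counts are whole reads that the authors assigned with featureCounts 1.6.2, strand setting 1, to 1 transcript interval from start to end, introns included, per the file headers, on GRCh38 (the submitters' processing notes name it, and DESeq2). The count test was edgeR 4.0.16 (R 4.3.3) with TMM, filterByExpr, robust glmQLFit and a two-sided glmQLFTest with group as the only term, called at a Benjamini-Hochberg adjusted p below 0.05 over all genes tested; DESeq2 1.42.0 was an alternative. The technical repeats of a replicate are 1 column. CPM are TMM-scaled, and 3 counts equal 0.0241 to 0.0693 CPM before that scaling. P-values measure the spread between these libraries, which may be technical. The entropy step and the count test were tested on simulated data. The simulated counts were of the 4 SY351 libraries against DMSO replicates 3 and 4 only. The count test over all 8 libraries, with DMSO replicates 1 and 2 apart from 3 and 4, was not simulated.

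The variations and the 11 gene lists were chosen with earlier results of these data known. The text names the 10 variations with the largest difference at any junction, the 5 largest rises and falls of entropy, the 5 with most junctions and most de novo junctions, the 8 largest changes of the dominant junction, up to 3 members a list, and the 5 largest folds in each direction of hosts with at least 10 CPM and no overlap. Of these UBE3D, LRRC8D, RAPGEF2, OTUD4 and ARHGEF10 are counted but not described, and 1 further gene that the rule named and 2 marker genes are not reported here. Sequences were taken outside chromosome 8. The sequences, the search for words and the comparison with annotated transcripts were chosen after the data were seen.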

Additional observations from a re-analysis of the deposited data

Results flagged for a closer look

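In 2 of the genes with values by library, 1 SY351 library stood apart by Dixon's test at the 95% level, which flags about 1 in 20 groups by chance. MNAT1 was counted at 25.7 CPM in SY351 replicate 4, against 23.6 to 24.0 CPM in the other SY351 libraries. HERPUD1 was counted at 5.91 CPM in SY351 replicate 2, against 4.30 to 4.49 CPM in the other SY351 libraries. The causes were not tested.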

How the results depend on the processing

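The number of complex variations with a call (1905) was 2191 at a probability of 0.9 and 1480 at 0.99. It was 1277 to 2533 with 5 or 3 junctions or more, retained intron types kept and 1 variation a gene. Those settings also change how many variations are counted, so their counts do not show how stable the call is. The share with higher entropy (81.2%) was 80.3% to 82.0% with 5 junctions or more, 1 variation a gene and weak junctions left out. Entropy relative to its maximum gives the same share by construction. An alternative chosen after seeing the data, only variations whose host was higher with SY351 without DMSO replicates 1 and 2, gave 73.6% with higher entropy in place of 81.2%. Changes of the dominant junction came to 22.4% with a margin of 0.1 and to 26.4% with the probability, in place of 34.6%.

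Counts of host genes moved most. In place of 350 lower and 37 higher, DESeq2 gave 547 and 74, total count scaling 406 and 7, and edgeR without DMSO replicates 1 and 2 gave 872 and 346. Leaving out 1 library at a time gave 66 to 547 lower (66 to 100 without any 1 SY351 library, 216 without DMSO replicate 1, 547 without DMSO replicate 3) and 3 to 73 higher (3 or 4 without any 1 SY351 library, 12 and 18 without DMSO replicates 1 and 2 in turn, 73 without DMSO replicate 4). Deviations from the group mean showed no positive correlation of note between samples of the same replicate number (-0.0153, -0.0409, 0.00641 and -0.176). Because DMSO replicates 1 and 2 stood apart from 3 and 4, these values cannot show whether the samples were paired. With the replicate number as a block edgeR called 0 lower and 0 higher, with 374 and 113 at an unadjusted p below 0.05, and each of the 10 hosts with the largest folds lost its call. CCNH turned to a log2 fold of 0.64 with the block and ranged from -0.57 to 0.44 with 1 library left out, above 0 without DMSO replicate 3 (0.13) or 4. MNAT1 turned to -0.069 without DMSO replicates 1 and 2. DBP and NPIPB11 missed the threshold without any 1 SY351 library (log2 folds of -4.66 to -4.44 and 2.69 to 2.84), NPIPB11 also without DMSO replicate 1 (2.46), and NPIPB11 and NPIPB13 with total count scaling (2.46 and 2.29). The causes were not tested.

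The SY351 libraries, of 43.3 to 77.9 M counts, were shallower than the DMSO libraries. With 1 splicing value a group, no spread between replicates can be set beside any inclusion.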
